A study of Mus musculus with 12 samples.

Results

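The crystallin genes are the 9 genes Cryaa, Cryab, Cryba1, Cryba2, Cryba4, Crybb1, Crybb2, Crybb3 and Crygs, taken by symbol from a table of 32867 mouse genes. Each symbol matched exactly 1 row. Crystallins are the water-soluble proteins that fill the fibre cells of the lens and give it its transparency and refractive power. Cryaa and Cryab, the alpha crystallins, are small heat shock proteins that keep other proteins from aggregating, and Cryab is made in many tissues under stress. The beta and gamma crystallins share a different fold and are mainly structural, with acidic (Cryba) and basic (Crybb) beta chains. Crystallin transcripts are also found in the retina, in neurons and in Müller glia, at levels far under those of the lens.

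Gene expression was measured by RNA-seq of whole retina from 4 groups of mice, with 3 samples in each. Pde6b rd1 carries an insertion in Pde6b, a rod phosphodiesterase subunit gene, and was taken at postnatal day 13. Pde6b rd10 carries a point mutation in the same gene (day 23), and Prph rd2 a mutation of Prph2, an outer segment protein gene (day 29). C3H mice with wild-type alleles were the controls, and the labels give these 3 samples days 13, 23 and 29, 1 sample each. The study's methods place C3H, Pde6b rd1 and Prph rd2 on a C3H background and Pde6b rd10 on C57Bl6/J, whereas the labels name C57BL6/J for Prph rd2. Mutation and day therefore differ together and cannot be told apart in a comparison with C3H. The same holds for strain, by the methods in Pde6b rd10 and by the labels in Prph rd2. Mice were used irrespective of sex. Xist, the X-inactivation transcript, had 8 to 10 reads in C3H samples, 64914 to 83716 in Pde6b rd1, 37187 to 47452 in Prph rd2 and 13428 to 18861 in Pde6b rd10, so that the sex of the mice differs between C3H and the models as well. In bulk tissue, fewer cells of a type and less RNA per cell cannot be told apart.

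Each sample had 17049495 to 24755890 reads on genes. Pde6b had between 4937 and 6253 reads in Pde6b rd1 samples and 16340 to 21014 in Pde6b rd10, whose mutation leaves the gene expressed, against 24335 to 29129 in C3H, and Prph2 had 30656 to 34634 reads in Prph rd2 against 52768 to 65756 in C3H. The crystallin genes together received 346 to 429 reads per C3H sample, 285 to 403 in Pde6b rd1, 373 to 412 in Prph rd2 and 562 to 730 in Pde6b rd10. Cryab alone held 67.4 to 83.4% of them. Leaving Cryab out, the other 8 genes summed to 86 to 105 reads in C3H, 56 to 67 in Pde6b rd1, 87 to 106 in Prph rd2 and 164 to 192 in Pde6b rd10. These are small numbers, and counting error sets much of the precision below.

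Levels per gene length are given as FPKM, in which the reads of a gene are divided by its length and by the depth of the sample. In C3H, Cryab led with 9.26 ± 0.421 FPKM (SD, n = 3). Crybb1 at 0.882 ± 0.215 FPKM and Crybb3 at 0.793 ± 0.162 came next, and their ranges overlapped. Cryaa followed at 0.365 ± 0.0777 FPKM, below the range of Crybb3. The ranges of Cryaa, Crygs (0.242 ± 0.133 FPKM), Cryba4 (0.203 ± 0.0719), Cryba1 (0.193 ± 0.0784), Cryba2 (0.117 ± 0.107) and Crybb2 (0.0723 ± 0.0295) overlapped from one to the next, so the order within this low group was not resolved. Cryab, Crybb1 and Crybb3 were the first 3 genes in Prph rd2 and Pde6b rd1 too. In Pde6b rd10, Cryaa at 0.950 ± 0.102 FPKM stood between Crybb1 (1.22 ± 0.615) and Crybb3 (0.881 ± 0.0498), with overlapping ranges.

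**Figure D1:**
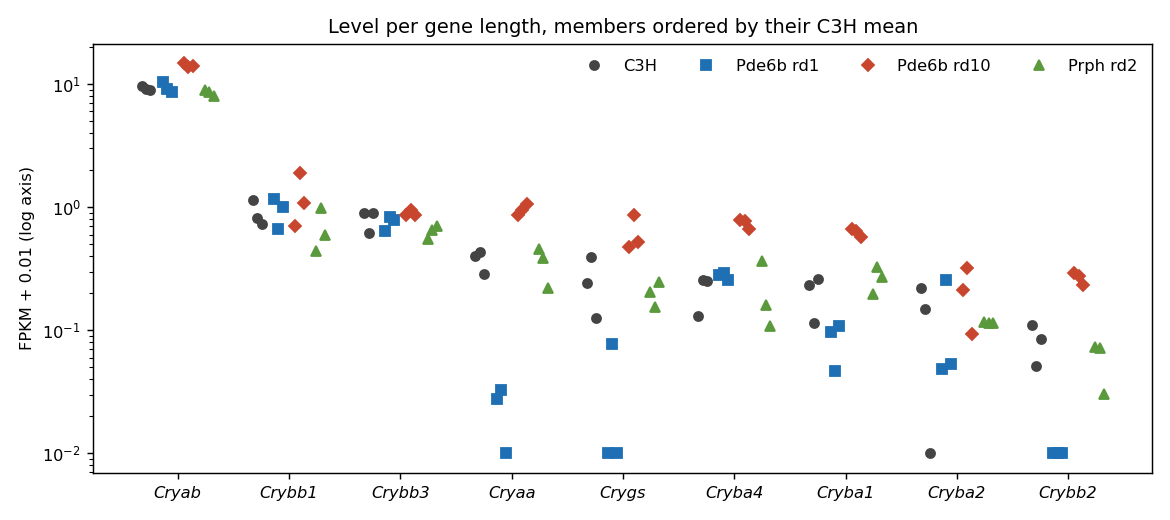
FPKM of the 9 crystallin genes in each of the 12 samples, on a log axis after adding 0.01, with the genes ordered by their C3H mean. Cryab stands far above the next gene in every group, and the lowest points are samples of Cryaa, Crygs, Cryba2 and Crybb2 with 0 reads.

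The genes lie at the following places in GRCm38, by the GENCODE vM21 annotation. Cryaa is at chr17:31677807-31681733 and Cryab at chr9:50751325-50756636, both on the plus strand. Cryba1 is at chr11:77718615-77725283, Cryba2 at chr1:74889934-74893143 and Crygs at chr16:22805203-22811577, all on the minus strand. The other 4 lie in close pairs on chromosome 5. Cryba4 (chr5:112246493-112252518, minus strand) and Crybb1 (chr5:112255815-112269585, plus strand) are 3296 bases apart. Crybb2 (chr5:113058258-113070117) and Crybb3 (chr5:113075839-113081584), both on the minus strand, are 5721 bases apart. Between Crybb1 and Crybb2 lie 788672 bases. These 4 genes are 3.81 to 4.64 Mb from Pde6b on the same chromosome, and Cryaa is 15.2 Mb from Prph2. Cryab and Hspb2, another small heat shock gene, run head to head on opposite strands and overlap, and Cryba1 overlaps Nufip2, also on the opposite strand. Whether the counting used the strand is not given in the sources used here, so reads of overlapping genes on opposite strands may not have been told apart. Hspb2 had 0 to 9 reads per sample, and Nufip2 had 3250 to 5716. Cryaa is likewise overlapped by an antisense RNA, AC090881.2, and Crybb2 by a processed pseudogene, Gm43247, both not used here.

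Promoters, from 250 bases before to 50 after the start, were taken from a table of RefSeq genes, in which 8 of the 9 members were matched, all but Cryab. Stretches from 4 of them are shown here because these genes include a pair that rose in Pde6b rd10 (Cryba1 and Cryba4) and a pair that was not called there (Crybb1 and Crybb3). The bases run from 210 to 11 before the start, 5′ to 3′ on the strand of the gene. Capitals mark TGCTGA, one arm of the sites that Maf proteins bind, on either strand, and TATAAA, the TATA box.
Cryba1 (GRCm38.p6, chr11:77725304-77725503, minus strand): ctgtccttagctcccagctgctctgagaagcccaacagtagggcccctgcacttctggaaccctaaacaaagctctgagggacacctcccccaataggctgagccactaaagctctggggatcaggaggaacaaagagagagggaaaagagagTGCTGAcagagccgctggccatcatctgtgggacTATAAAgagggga
Cryba4 (GRCm38.p6, chr5:112252529-112252728, minus strand): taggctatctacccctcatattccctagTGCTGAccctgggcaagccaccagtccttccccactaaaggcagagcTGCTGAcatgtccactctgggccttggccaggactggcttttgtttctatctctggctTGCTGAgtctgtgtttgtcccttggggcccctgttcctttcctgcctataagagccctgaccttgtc
Crybb1 (GRCm38.p6, chr5:112255610-112255809, plus strand): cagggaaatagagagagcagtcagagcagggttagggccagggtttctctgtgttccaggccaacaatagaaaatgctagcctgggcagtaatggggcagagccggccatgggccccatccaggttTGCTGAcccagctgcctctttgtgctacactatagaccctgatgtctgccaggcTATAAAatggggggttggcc
Crybb3 (GRCm38.p6, chr5:113081595-113081794, minus strand): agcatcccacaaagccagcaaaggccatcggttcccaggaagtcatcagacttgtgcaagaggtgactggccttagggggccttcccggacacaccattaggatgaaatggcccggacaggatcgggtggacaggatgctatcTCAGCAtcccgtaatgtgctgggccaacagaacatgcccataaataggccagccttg

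For Cryaa, 30 bases around its TGCTGA are shown, from chr17:31677811-31677840 on the plus strand, because its level differed from C3H in both Pde6b models. They lie before the start of the gene in RefSeq. By the GENCODE annotation, in which Cryaa begins at 31677807, they lie inside the gene.
Cryaa: gagcattccagcTGCTGAcggtgcagcctc
TGCTGA was found on either strand in 7 of the 8 promoters, all but that of Crybb2, against 19.5% of 32851 mouse promoters of the same length. Cryba4 held it 3 times. TATAAA was found on either strand in 4 of the 8 promoters, those of Cryba1, Cryba2, Crybb1 and Crygs, against 13.6% of all. GAANNTTC, a pair of inverted units bound by heat shock factors that reads the same on both strands, was in none of the 8 and in 7.86% of all promoters. Cryba4, which rose in Pde6b rd10, and Crybb3, which was not called there, both held TGCTGA. A match describes the letters in this window and is not a binding site.

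The comparisons with C3H ask how retinal gene expression in each model of photoreceptor degeneration differs from that of a retina without these mutations. They share the same 3 C3H samples. Calls come from the quasi-likelihood test of edgeR and need a fold change of 1.5 or more with p, before adjustment, below 0.05. Adjusted p-values (Benjamini-Hochberg) take in every gene tested. Nothing in the labels says that the 3 samples of a group came from separate animals, so p-values measure the spread between these samples. CPM values give the reads of a gene relative to the depth of its sample, scaled with TMM factors and not divided by gene length. The filter on low counts kept only 4 of the 9 genes in the Pde6b rd1 and Prph rd2 comparisons (Cryaa, Cryab, Crybb1 and Crybb3). In the Pde6b rd10 comparison it kept 6, since Cryba1 and Cryba4 passed through their higher counts in Pde6b rd10. All 9 were therefore also tested in a fit without this filter, and the values of Cryba1, Cryba2, Cryba4, Crybb2 and Crygs are from that fit where the filter had removed them.

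In Pde6b rd1 at day 13, Cryaa, Crybb2 and Crygs had 0 or 1 read per sample and were lower than in C3H. The more abundant Cryab, Crybb1 and Crybb3 had log2 differences from C3H between −0.16 and 0.05 and were not called. With the filter, 1 of the 4 tested members was called, which was lower (background: 15% of 18310 genes called in either direction). Without it, 3 of 9 were called, all lower (background: 11.6% of 30360 genes). The median log2 difference of the 9 was −0.26 in the latter fit, against 0.02 over all genes in it.

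In Pde6b rd10 at day 23, 3 of the 6 members tested were called and all were higher (background: 23.9% of 18704 genes called in either direction). Without the filter, 5 of 9 were called higher, namely Cryaa, Cryba1, Cryba4, Crybb2 and Crygs, and none lower (background: 19.6% of 30949 genes). The median log2 fold change of the 9 was 1.18 in this fit, against 0.02 over all genes in it.

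In Prph rd2 at day 29, 0 of the 4 tested members and, without the filter, 0 of 9 were called by edgeR (backgrounds: 4.57% of 18581 and 4.29% of 30327 genes). DESeq2, run with the filter, also called 0, and 0 of the 9 had an unadjusted p under 0.05 in edgeR. Their log2 differences from C3H lay between −0.55 (Crybb2) and 0.39 (Cryba1), with a median of −0.19 against 0.01 over all genes. A p that misses the threshold does not show that the levels were alike.

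The contrast of Pde6b rd10 with Pde6b rd1, in 1 fit of all 12 samples, called 4 of the 6 members tested, all higher in Pde6b rd10 (background: 28.8% of 19616 genes). Without the filter it called 6 of 9, again all higher (background: 21.6% of 32867 genes). The 2 models share a mutated gene but differ in day and, by the methods, in strain, and their Xist reads did not overlap.

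**Figure D2:**
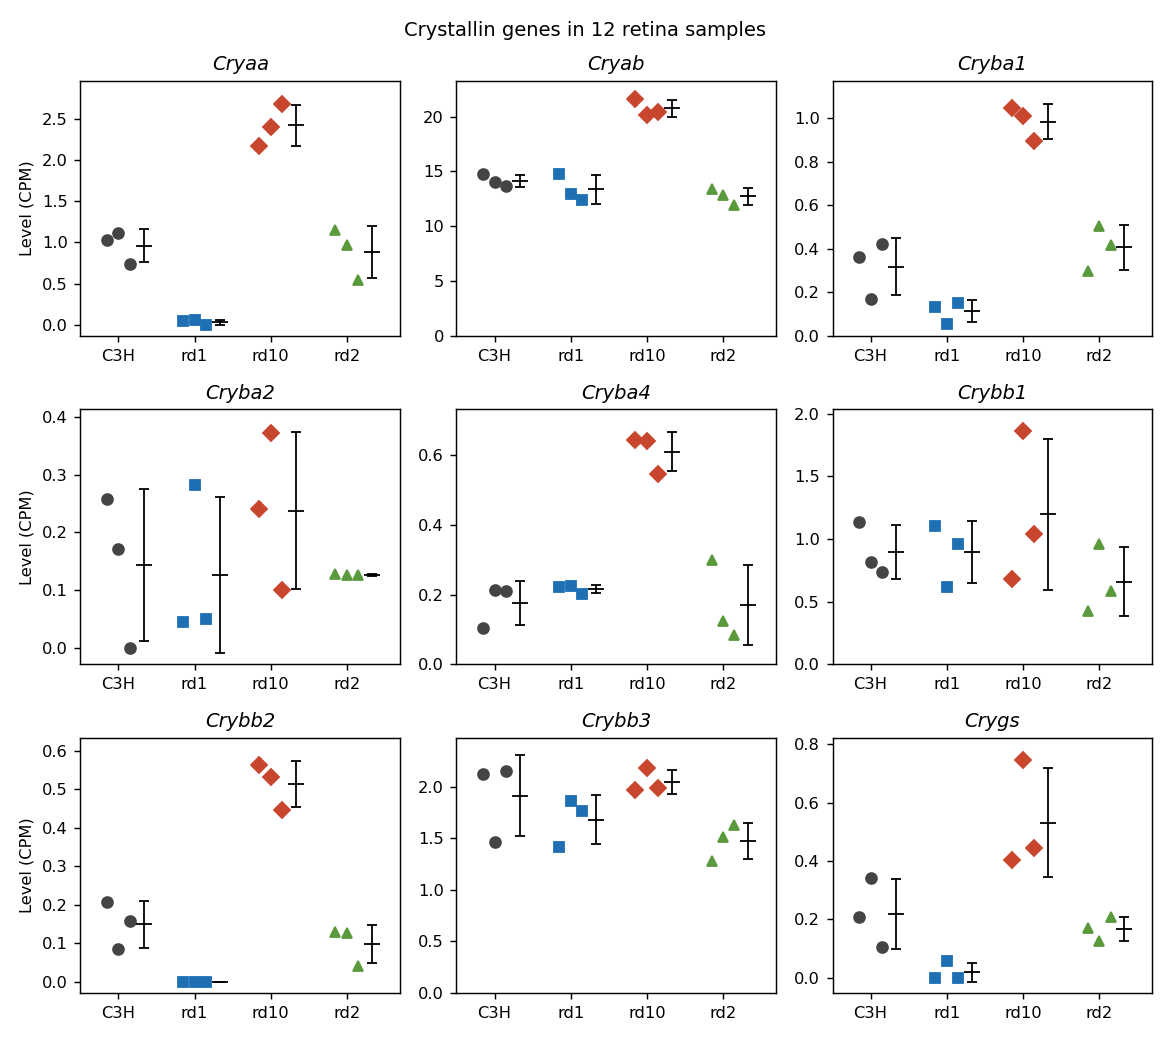
CPM of each crystallin gene in each sample, 1 panel per gene with its own axis. Points are samples in the order of replicates 1 to 3, and the bar beside them gives the mean and SD of the 3 samples of a group. Pde6b rd10 samples lie above the other groups for Cryaa, Cryab, Cryba1, Cryba4, Crybb2 and Crygs, and Pde6b rd1 samples lie at or near 0 for Cryaa, Crybb2 and Crygs.

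Cryaa, the lens chaperone, had 20, 26 and 14 reads in the C3H samples of days 13, 23 and 29. The Pde6b rd1 samples had 1, 1 and 0 reads, the Prph rd2 samples 27, 23 and 13, and the Pde6b rd10 samples 54, 45 and 54. Neither Pde6b mutant overlapped C3H, while Prph rd2 did. The level was 0.962 ± 0.200 CPM in C3H, 0.0335 ± 0.0296 in Pde6b rd1, 0.887 ± 0.313 in Prph rd2 and 2.42 ± 0.254 in Pde6b rd10 (SD, n = 3 each). In Pde6b rd1 the log2 fold change was −4.61 (SE 0.63, edgeR adjusted p = 1.91e-06). The ratio of summed reads, 2 against 60 at their depths, was 29.3-fold lower, with a 95% counting interval of 7.77 to 248. In Pde6b rd10 Cryaa rose 2.47-fold (log2 1.30, SE 0.23, edgeR adjusted p = 8.50e-05). In Prph rd2 the log2 difference was −0.13 (SE 0.33). Between Pde6b rd10 and Pde6b rd1 the difference was 5.95 on the log2 scale (SE 0.51, edgeR adjusted p = 4.00e-09), from 153 and 2 reads, a ratio of 72.3 with a counting interval of 19.7 to 602.

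The C3H sample of day 13, the day of the Pde6b rd1 samples, had 20 Cryaa reads. Against that single sample, assumed to vary like those of the model, the log2 difference was −4.71 (SE 0.94) in Pde6b rd1. Against the C3H sample of day 23, which had 26 reads, it was 1.10 (SE 0.33) in Pde6b rd10.

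Cryab, the widely expressed alpha crystallin, was by far the most abundant member. It had 285, 327 and 260 reads in C3H, 336, 229 and 245 in Pde6b rd1, 314, 306 and 286 in Prph rd2, and 538, 379 and 411 in Pde6b rd10. At the depth of each sample these came to 14.1 ± 0.553 CPM in C3H, 13.4 ± 1.28 in Pde6b rd1, 12.7 ± 0.751 in Prph rd2 and 20.7 ± 0.794 in Pde6b rd10. The Pde6b rd10 samples lay above all others, and the other 3 groups overlapped. In Pde6b rd10 the log2 difference was 0.55 (SE 0.08, edgeR adjusted p = 3.81e-06), a ratio of 1.47 that was under the threshold of 1.5. Against Pde6b rd1 it was 0.63 (SE 0.08, edgeR adjusted p = 1.36e-06), which passed. Without replicate 3 of Pde6b rd1 this last difference was 0.58 on the log2 scale and under the threshold. In Pde6b rd1 and Prph rd2 the log2 differences from C3H were −0.05 (SE 0.09) and −0.15 (SE 0.09). Hspb2, the head-to-head neighbour of Cryab, had 4 reads over the 3 C3H samples and 20 over the 3 Pde6b rd10 samples, a ratio of 4.84 with a counting interval of 1.62 to 19.5. It did not pass the filter on low counts.

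Cryba1, an acidic beta crystallin that is also made in astrocytes of the retina, had 7, 4 and 8 reads in C3H, 3, 1 and 3 in Pde6b rd1, 7, 12 and 10 in Prph rd2, and 26, 19 and 18 in Pde6b rd10. The Pde6b rd10 samples lay above all others. It rose 3.15-fold in Pde6b rd10 (log2 1.65, SE 0.37, edgeR adjusted p = 0.000820). Against the C3H sample of day 23 alone, which had the lowest count of the 3, the log2 difference was 2.48 (SE 0.65). Pde6b rd1 lay below C3H, at 0.113 ± 0.0502 against 0.318 ± 0.130 CPM. The log2 difference there, −1.35 (SE 0.75), did not pass the test (edgeR adjusted p = 0.195). The gene was called lower only where all 12 samples shared 1 fit. Between Pde6b rd10 and Pde6b rd1 it differed by 3.03 on the log2 scale (SE 0.46, edgeR adjusted p = 1.19e-05). Nufip2, the overlapping gene, had 3784 to 4670 reads per C3H sample and 3250 to 5244 in Pde6b rd10, so its ranges overlapped between these groups.

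Cryba4, another acidic chain, had 2, 5 and 4 reads in C3H, 5, 4 and 4 in Pde6b rd1, 7, 3 and 2 in Prph rd2, and 16, 12 and 11 in Pde6b rd10. It rose 3.35-fold in Pde6b rd10 (log2 1.74, SE 0.45, edgeR adjusted p = 0.00249). Against the C3H sample of day 23 alone, which had 5 reads, Cryba4 was higher in Pde6b rd10 by 1.48 on the log2 scale (SE 0.70). Unlike Cryaa, it was not near 0 in Pde6b rd1, where the log2 difference from C3H was 0.30 (SE 0.75). Pde6b rd10 exceeded Pde6b rd1 by 1.48 on the log2 scale (SE 0.45, edgeR adjusted p = 0.00866). Cryba2, the third acidic chain, had 0 to 7 reads in any sample and was called in no comparison. Its log2 differences from C3H were −0.26 (SE 0.91) in Pde6b rd1, −0.19 (SE 0.87) in Prph rd2 and 0.67 (SE 0.75) in Pde6b rd10, and with these errors no difference was detectable at this depth.

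Of the basic chains, Crybb1 and Crybb3 were called in no comparison. Crybb1 had 22, 19 and 14 reads in C3H, 25, 11 and 19 in Pde6b rd1, 10, 23 and 14 in Prph rd2, and 17, 35 and 21 in Pde6b rd10, and all groups overlapped. Crybb3 had 41, 34 and 41 reads in C3H, 32, 33 and 35 in Pde6b rd1, 30, 36 and 39 in Prph rd2, and 49, 41 and 40 in Pde6b rd10. The largest log2 difference of either gene from C3H was −0.43 (SE 0.36), of Crybb1 in Prph rd2. In Pde6b rd10 the log2 differences were 0.37 (SE 0.34) for Crybb1 and 0.11 (SE 0.21) for Crybb3. In Pde6b rd1 they were 0.05 (SE 0.33) and −0.16 (SE 0.24). For Crybb3, the ratio of summed reads in Pde6b rd1 over C3H was 0.882, with a counting interval of 0.668 to 1.16. That of Cryaa, with a ratio of 0.0341, was 0.00404 to 0.129.

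Crybb2, the neighbour of Crybb3, behaved otherwise. It had 4, 2 and 3 reads in C3H, 0 in each of the 3 Pde6b rd1 samples, 3, 3 and 1 in Prph rd2, and 14, 10 and 9 in Pde6b rd10. The Pde6b rd10 samples lay above all others. With the 0 reads of Pde6b rd1 set to 3 over the group and the C3H reads taken as they are, it was at least 2.93-fold lower there than in C3H. The exact interval, which takes in the error of both counts, put the ratio of Pde6b rd1 to C3H at no more than 0.519. Such bounds and intervals cover counting error alone, as PCR copies were not marked by molecular identifiers. In Pde6b rd10 it was 3.41-fold higher than in C3H (log2 1.77, SE 0.59, edgeR adjusted p = 0.00931, no filter). By the same floor, its level in Pde6b rd10 was at least 10.4-fold above that in Pde6b rd1, and the lower limit of the exact interval of this ratio was 7.99.

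Crygs, gamma S crystallin of lens fibre cells, had 4, 8 and 2 reads in C3H, 0, 1 and 0 in Pde6b rd1, 4, 3 and 5 in Prph rd2, and 10, 14 and 9 in Pde6b rd10. In Pde6b rd1 the ratio, from 1 read against 14, was 13.7-fold lower with a counting interval of 2.08 to 578. In Pde6b rd10 it was 2.26-fold higher than in C3H (log2 1.18, SE 0.53, no filter), with an unadjusted p of 0.0253 in edgeR and an adjusted p of 0.0677. That call was therefore lost when the adjusted p served as the threshold. Against the C3H sample of day 23, which had 8 of the 14 C3H reads, the log2 difference was 0.59 (SE 0.67).

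**Figure D3:**
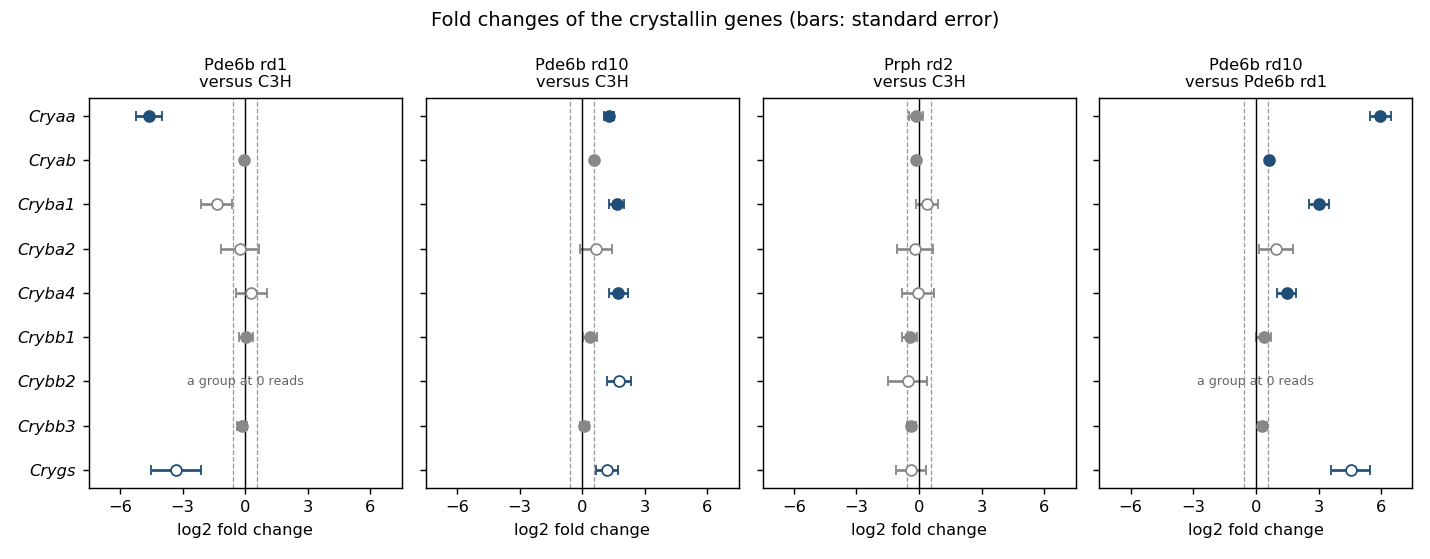
Log2 fold changes with standard errors for the 9 genes in the 4 comparisons. Filled points are genes that passed the filter on low counts and open points come from the fit without it; blue marks called genes and dashed lines a 1.5-fold change. Cryaa, Crybb2 and Crygs move to the left in Pde6b rd1 or have a group at 0 reads, and no point of Prph rd2 is blue.

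All these levels but those of Cryab were under about 2 FPKM. On log2(FPKM + 1), a scale that understates the change of low genes, limma called 0 members in each of the 3 comparisons with C3H (backgrounds: 5.99% of genes for Pde6b rd1, 0.893% for Prph rd2 and 10.9% for Pde6b rd10) and 2 between Pde6b rd10 and Pde6b rd1 (background: 14.9%). Of the members that passed the filter, an unadjusted p under 0.05 was reached on this scale by 1 of 4 in Pde6b rd1, where 9014 of 18310 genes reached it, by 4 of 6 in Pde6b rd10, where 10487 of 18704 did, and by 0 of 4 in Prph rd2, where 4350 of 18581 did.

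Spread within groups was described by the SD of log2 CPM around the group means, pooled over the 4 groups. In C3H this spread includes differences of day, as each C3H sample is of another day. It was 0.0892 for Cryab and 0.213 for Crybb3, and between 0.469 and 1.19 for the other 7, against a median of 0.481 over 7943 genes of low level, up to 3 CPM. The chi-square of the counts per degree of freedom, which is about 1 when only counting error acts, was 2.91 for Crybb1, 1.70 for Cryba2 and between 0.428 and 1.19 for the others. The median of the low genes was 1.35. Crybb1 had the highest of the 9, with 11 to 25 reads in Pde6b rd1 and 17 to 35 in Pde6b rd10.

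The retina lies beside the lens, and lens material in a dissected retina would bring crystallin transcripts with it. For this reason the genes of the lens were set beside the crystallins, as a list of 19 markers of lens fibre and lens epithelium, of which 17 are in the table. The gamma crystallins Crygb to Crygf are structural proteins of the fibre core, with similar genes that all lie on chromosome 1. They were counted together, since reads may not be assigned to single genes with certainty. Together they had 16, 17 and 26 reads in C3H, 0, 0 and 0 in Pde6b rd1, 18, 30 and 20 in Prph rd2, and 79, 49 and 61 in Pde6b rd10. The Pde6b rd10 samples lay above all others and the Pde6b rd1 samples below. Crygc, Crygd and Crygb rose in Pde6b rd10, by 2.01 (SE 0.42), 1.98 (SE 0.46) and 1.10 (SE 0.36) on the log2 scale. These values of single genes are subject to the same limit on the assignment of reads.

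Other markers of the lens had few reads in every group. Mip, the lens water channel, had 1 to 6 reads in C3H, 0 to 1 in Pde6b rd1, 1 to 2 in Prph rd2 and 1 to 6 in Pde6b rd10. Lim2, a fibre membrane protein, had 0 to 2 reads in any sample, Gja3, a lens connexin, 0 to 2, and Dnase2b, which degrades DNA in fibre cells, 0 to 2. Summed with Lctl, Grifin and Birc7, these 7 genes had 5 to 15 reads per C3H sample, 6 to 7 in Pde6b rd1, 6 to 8 in Prph rd2 and 8 to 22 in Pde6b rd10. In reads not scaled to depth, the ranges of Pde6b rd1 and Pde6b rd10 lay apart by 1 read, too small a gap to separate the groups. Those of C3H and Pde6b rd10 overlapped. The 22 reads were in replicate 2 of Pde6b rd10, while replicates 1 and 3 had 9 and 8.

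Over the whole list, 7 genes passed the filter in the Pde6b rd10 comparison, of which 4 rose and 2 fell. Of these, Crygb, Crygc and Crygd passed it through their higher counts in Pde6b rd10 and were not tested in Pde6b rd1 or Prph rd2, so the count of genes that rose is partly set by the filter. Besides the 3 gamma crystallins, Hsf4, the heat shock factor of the lens, rose by 0.79 on the log2 scale (SE 0.21). Bfsp1 and Bfsp2, the beaded filament proteins of lens fibres, fell by 1.12 (SE 0.31) and 0.93 (SE 0.25). Neither of them was called in Pde6b rd1, with log2 differences from C3H of −0.13 (SE 0.28) for Bfsp1 and −0.54 (SE 0.24) for Bfsp2. In Pde6b rd1, 1 of 5 tested markers was called, Hsf4, which fell by 1.25 (SE 0.32). In Prph rd2, 0 of 4 were called by edgeR and 0 had an unadjusted p under 0.05. Between Pde6b rd10 and Pde6b rd1, 4 of 8 were higher and 2 lower. Bfsp1 was one of those that were lower (log2 −0.97, SE 0.32). The summed level of the 17 markers was 6.36 to 8.45 CPM in C3H, 4.69 to 5.02 in Pde6b rd1, 6.71 to 8.30 in Prph rd2 and 8.34 to 8.99 in Pde6b rd10. In Pde6b rd1, 7 of the 17 had no read. The part of lens material in the crystallin counts was not tested.

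**Figure D4:**
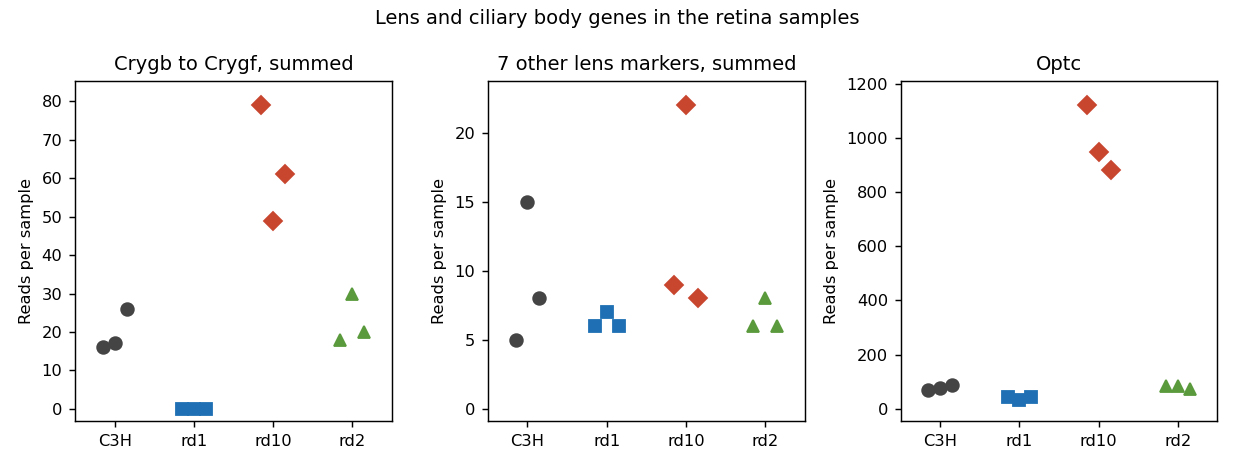
Reads per sample for the 5 gamma crystallins summed, for 7 other lens markers summed (Mip, Lim2, Gja3, Dnase2b, Lctl, Grifin and Birc7) and for Optc, with replicates 1 to 3 from left to right in each group. Gamma crystallin reads range from 0 in every Pde6b rd1 sample to 79 in Pde6b rd10, the other lens markers stay at 22 or fewer, and Optc reaches 1121 in Pde6b rd10.

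The reads of the members were also set against those of the gamma crystallins. For Cryaa the ratio of its reads to theirs was 1.02 in C3H (counting interval 0.698 to 1.48), 0.926 in Prph rd2 (0.647 to 1.32) and 0.810 in Pde6b rd10 (0.650 to 1.01). For Cryba1 it was 0.322, 0.426 and 0.333, and for Crybb2 0.153, 0.103 and 0.175, with overlapping intervals over the 3 groups. Cryba4 and Crygs likewise kept overlapping intervals. For Crybb3 the ratio was 1.97 in C3H (1.43 to 2.74), 1.54 in Prph rd2 (1.13 to 2.13) and 0.688 in Pde6b rd10 (0.546 to 0.865). Crybb1 had 0.932 in C3H (0.634 to 1.37) and 0.386 in Pde6b rd10 (0.291 to 0.509), and Cryab 14.8 (11.3 to 19.6) and 7.03 (6.03 to 8.23). Between C3H and Pde6b rd10 the intervals of Crybb3, Crybb1 and Cryab lay apart, while those of Cryaa, Cryba1, Cryba2, Cryba4, Crybb2 and Crygs overlapped. The gamma reads themselves went from 59 in C3H to 189 in Pde6b rd10, so a member that rose less has a lower ratio. This split therefore restates the fold changes above and is not a separate test. Intervals from few reads are wide, as for Cryba2 with 9 and 15 reads, and their overlap does not show a kept proportion. In Pde6b rd1, where the gamma crystallins had no read, Cryab had 810 reads, Crybb3 100, Crybb1 55, Cryba4 13, Cryba1 7, Cryba2 7, Cryaa 2, Crygs 1 and Crybb2 0.

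Markers of the other tissues that border the retina were also listed, and most of those tested were not called in Pde6b rd10. Among 7 markers of ciliary body, iris and muscle, Optc, opticin of the ciliary body and vitreous, had 68, 75 and 87 reads in C3H, 42, 33 and 45 in Pde6b rd1, 83, 84 and 74 in Prph rd2, and 1121, 949 and 881 in Pde6b rd10. It rose by 3.63 (SE 0.10, edgeR adjusted p = 4.28e-17) in Pde6b rd10 and fell by 0.88 (SE 0.19) in Pde6b rd1 on the log2 scale, and its ranges in C3H and Prph rd2 overlapped. Wfdc1, also of this list, rose by 1.10 (SE 0.13) and fell by 1.21 (SE 0.20) in the same 2 models. In all, 2 of 6 tested were higher in Pde6b rd10 and 4 of 5 lower in Pde6b rd1, including the smooth muscle genes Acta2 (log2 −0.91, SE 0.18) and Myh11. Acta2 and Myh11 were not called in Pde6b rd10 (log2 −0.03, SE 0.15, and −0.02, SE 0.19). Between Pde6b rd10 and Pde6b rd1, 4 of 6 were higher, and in Prph rd2 0 of 6 were called by edgeR, with 1 at an unadjusted p under 0.05. As background for this and the other lists, edgeR called 15% of all genes tested in Pde6b rd1 and 23.9% in Pde6b rd10. It called 4.57% in Prph rd2 and 28.8% between the Pde6b models. Over this list the median log2 difference from C3H was −0.91 in Pde6b rd1 and 0.04 in Pde6b rd10, against −0.01 and −0.0025 over all genes tested, to which the medians of the lists that follow may be compared too. The summed level of the list was 15.4 to 18.6 CPM in C3H, 8.72 to 9.52 in Pde6b rd1, 14.1 to 16.3 in Prph rd2 and 60.0 to 67.2 in Pde6b rd10. Optc alone had 46.4 ± 3.59 CPM in Pde6b rd10 (SD, n = 3). The part of these tissues in the crystallin counts was not tested.

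Of 12 pigment epithelium markers, 5 of 9 tested were lower in Pde6b rd1, among them Rgr (log2 −0.90, SE 0.09) and Rpe65 (log2 −0.72, SE 0.13), genes of the visual cycle. In Pde6b rd10, 1 of 9 was higher, the pigment enzyme gene Tyrp1 (log2 1.11, SE 0.14), and in Prph rd2 0 of 9 were called by edgeR, with 3 at an unadjusted p under 0.05. Pde6b rd10 exceeded Pde6b rd1 for 6 of 10. For pigment epithelium the median log2 difference from C3H was −0.72 in Pde6b rd1 and 0.07 in Pde6b rd10. The summed level was 75.4 to 78.4 CPM in C3H, 49.8 to 55.4 in Pde6b rd1, 75.8 to 77.2 in Prph rd2 and 76.8 to 80.9 in Pde6b rd10. All 12 had reads in every group, and their part in the crystallin counts was not tested. Of 8 cornea and conjunctiva markers, 6 are in the table, and they summed to 4 to 18 reads in any sample, with no gene to test.

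Markers of retinal cells that express crystallins were listed as well. Of 8 Müller glia markers, 3 fell in Pde6b rd1, namely Glul, glutamine synthetase (log2 −1.54, SE 0.03), the water channel Aqp4 (log2 −1.38, SE 0.04) and Apoe (log2 −0.59, SE 0.05). In Pde6b rd10, 3 rose, Gfap, the filament of reactive glia (log2 3.19, SE 0.05), Apoe (log2 1.28, SE 0.06) and Vim (log2 0.76, SE 0.04), and Slc1a3, a glutamate transporter, fell (log2 −0.76, SE 0.03). In Prph rd2 0 of 8 were called by edgeR, with 6 at an unadjusted p under 0.05. Over the 8 glial markers the median log2 difference from C3H was −0.39 in Pde6b rd1 and 0.37 in Pde6b rd10. Their summed level was 3609 to 3747 CPM in C3H, 2043 to 2082 in Pde6b rd1, 3792 to 3913 in Prph rd2 and 3799 to 4004 in Pde6b rd10. Of 8 ganglion cell markers, Thy1 fell in Pde6b rd1 (log2 −0.62, SE 0.04) and Pou4f2 in Pde6b rd10 (log2 −0.63, SE 0.09), and 0 were called in Prph rd2 by edgeR, with 3 at an unadjusted p under 0.05. Their median log2 difference from C3H was −0.34 in Pde6b rd1 and −0.31 in Pde6b rd10. Against Pde6b rd1, in Pde6b rd10 6 Müller glia markers and 1 ganglion cell marker were higher and 1 glial marker was lower. All of these markers had reads in every group.

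The alpha crystallins belong to the small heat shock proteins, and 15 genes of that family and of the heat shock response were listed with them, of which 12 could be tested. In Pde6b rd10, 3 were higher and 1 lower. Bag3, a partner of Hspb8 in the clearance of misfolded proteins, rose by 1.58 on the log2 scale (SE 0.12), Hspb8 by 0.63 (SE 0.12) and Hsf4 as above, while Hspb1 fell by 0.63 (SE 0.16). In Pde6b rd1, Hspa1b, an inducible chaperone, was higher (log2 0.80, SE 0.09), and Hspb8 (log2 −1.02, SE 0.15), Hspb6 (log2 −0.79, SE 0.08) and Hsf4 were lower. In Prph rd2, 3 were lower, Hspa1a (log2 −1.91, SE 0.11), Hspb1 (log2 −0.76, SE 0.16) and Hspb6 (log2 −0.62, SE 0.08). In Pde6b rd10 against Pde6b rd1, 4 of 12 were higher and 0 lower. The median log2 difference of the list from C3H was −0.11 for Pde6b rd1, 0.02 for Prph rd2 and 0.29 for Pde6b rd10.

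Of 13 regulators of crystallin genes in the lens, 12 are in the table and 10 were tested. In Pde6b rd10, Maff, a small Maf protein, rose by 1.64 (SE 0.29) on the log2 scale and Hsf4 rose as above, while Mafa, a large Maf protein, fell by 1.27 (SE 0.16). In Pde6b rd1 only Hsf4 of the 10 was called, and in Prph rd2 0 were, by edgeR, with 0 at an unadjusted p under 0.05. Between Pde6b rd10 and Pde6b rd1, 3 were higher, among them Hsf4, and 3 lower, which were Mafa, Maf and Prox1. The median log2 difference from C3H was 0.15 in Pde6b rd10 and 0.03 in Pde6b rd1.

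Other genes that carry a crystallin name are not lens structural proteins in the mouse, apart from the gamma crystallins. Of 15 such genes, 14 are in the table. Crym, a thyroid hormone binding protein, was higher in Pde6b rd1 (log2 0.82, SE 0.04) and in Pde6b rd10 (log2 1.22, SE 0.04), the former against the direction of Cryaa. It was the only gene of the list called in Pde6b rd1, of 7 tested. In Pde6b rd10, 6 of 10 were higher, which were the 3 gamma crystallins, Crym, Crybg1 (log2 1.28, SE 0.22) and Cryzl2 (log2 0.85, SE 0.14), and Cryz, a quinone reductase, was lower (log2 −0.78, SE 0.07). In the contrast of both Pde6b models, 5 of 10 were higher and 1 lower, and in Prph rd2 0 of 7 were called by edgeR, with 2 at an unadjusted p under 0.05. The 3 gamma crystallins were tested in the comparisons with Pde6b rd10 alone, where their higher counts passed the filter.

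To describe which genes had the most similar pattern, the mean log2 CPM of the 9 members over the 12 samples was correlated with each of 19600 other genes. The highest Pearson coefficients, a description without a test over 12 samples that fall into 4 groups, included those of Kcng4 (r = 0.981), Ucp2, Wfdc1, App, Slc9a3r1, Gbp6, Rgs11, Prph and Aldh2 (r = 0.970). Prph is the peripherin of neuron filaments and is not Prph2. These coefficients rest on differences between the groups. Deviations from the group means leave only the spread within groups, which in C3H includes differences of day. On these deviations the highest included Gm17135 (r = 0.958), Fam166a, Gm9385, Gm17949, CT486005.1, Atcayos, Slc46a1, Gm10308 and Slc29a1 (r = 0.884). Of the 10 highest, 8 had a sample with 15 or fewer reads. The lists had 0 genes in common.

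Among the members themselves, the 36 pairs had a median coefficient of 0.44 over the 12 samples, from 0.08 to 0.93, the highest being Cryaa with Crygs. After removal of the group means the median was 0.05, from −0.80 to 0.80, over counts as low as 0. Of 12510 circRNAs, RNA circles that the study counted by their junction reads, 0 came from a crystallin gene.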

How the data were processed

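The authors prepared directional libraries from ribosomal RNA-depleted total RNA and deposited gene counts made with HTSeq 0.11.2 on GRCm38, per the submitters' processing notes, which also name HISAT2. The deposited FPKM values are the authors' own scaling of these counts by gene length and depth. A deposited circRNA table holds junction read counts and the authors' TPM, of which only the counts were used. Groups follow the genotype in the labels. Among the 12 within-group pairs of samples, 0 held identical values.

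Counts were tested with edgeR 4.0.16 (TMM, filterByExpr with a minimum count of 10, quasi-likelihood test) in R 4.3.3, over all genes. The method was tested on simulated counts. Alternatives were DESeq2 1.42.0, RLE size factors, no filter beyond 1 read, an adjusted p threshold, 1 fit of all 12 samples, single C3H samples of the same day, a replicate block, a 2-level base quality class, and limma 3.58.1 on log2(FPKM + 1) and log2(FPKM + 0.1). Leaving out each sample in turn was tried as well. CPM used a prior count of 0.5 for log2 values. Counting intervals are exact 95% intervals of a ratio of summed reads at the groups' depths, and a group at 0 reads was set to 3 reads over the group. Promoters came from RefSeq.

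The 9 members and the gene lists were chosen with earlier results of these data known. All members are named with their values. Of each list (lens, other crystallin-named genes, pigment epithelium, cornea and conjunctiva, ciliary body with iris and muscle, Müller glia, ganglion cells, heat shock proteins, crystallin regulators) up to 5 called genes with the smallest p were named per comparison, and the 10 genes most like the members by each measure. Some genes that this rule names are not reported here. Crygb, the summed gamma crystallins, the 7 summed lens markers, Nufip2 and Xist were named beyond this rule after their values were seen.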

Additional observations from a re-analysis of the deposited data

Results flagged for a closer look

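Of the crystallin genes that passed the filter on low counts, 4 differed between Pde6b rd10 and Pde6b rd1 when that difference itself was tested with edgeR in 1 fit of all 12 samples, in which 28.8% of all genes were called. Cryba1 and Cryba4 passed the filter through their higher counts in Pde6b rd10. On the log2 scale, Pde6b rd10 minus Pde6b rd1, the differences were 5.95 for Cryaa, 3.03 for Cryba1, 1.48 for Cryba4 and 0.63 for Cryab. All 3 samples of Pde6b rd10 lay above all 3 of Pde6b rd1 for each of these genes. Day, the level of Xist and, by the methods, strain differ between these groups together with the allele and cannot be told apart. With 3 samples in a group, single samples were not examined for lying far from the others.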

How the results depend on the processing

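The members called were 1 in Pde6b rd1, 3 in Pde6b rd10, 0 in Prph rd2 and 4 between Pde6b rd10 and Pde6b rd1. Without the filter on low counts Pde6b rd1 had 3 and Pde6b rd10 had 5, since more members were tested. With all 12 samples in 1 fit Pde6b rd1 had 2, as Cryba1 then passed the filter and was called. By limma on log2(FPKM + 1) the calls were 0 in Pde6b rd1, 0 in Pde6b rd10 and 2 between these models, because adding 1 to levels mostly under 1 FPKM shrinks their fold changes. When each sample was left out in turn the calls ranged from 1 to 1 in Pde6b rd1, from 3 to 4 in Pde6b rd10, from 0 to 0 in Prph rd2 and from 4 to 5 between the models. Of the values of single members under the alternatives, 300 stayed on their side of the threshold, 7 fell under it, 1 passed it, and no called value changed direction.

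Replicate numbers of the groups mark no shared animal or batch in the labels, and in no comparison did the deviations of all 3 same-numbered pairs correlate above 0.1. With the replicate block the calls were 1, 3, 0 and 4. The base quality class, DESeq2 and RLE size factors left the numbers of calls at 1, 3, 0 and 4. Depth limits Cryba2, Crybb2 and Crygs most, at 14 or fewer reads in any sample.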
